A study of Ursus arctos with 12 samples.

Results

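The genes described here are the ligands, receptors, secreted antagonists and core cytoplasmic proteins of Wnt signaling, measured in the vastus lateralis, a thigh muscle, of the brown bear (Ursus arctos). They were taken by gene symbol, as WNT, FZD, DKK or RSPO followed by a digit, together with a named list of other receptors, antagonists, secretion factors and intracellular proteins. The count table held 58 such symbols, and the 44 with at least 30 reads summed over all libraries are the members, among 17290 genes that passed this limit and 30249 genes in the table. Muscle was biopsied from 6 free-ranging bears that were 2 to 3 years old, each sampled once during winter hibernation (February) and once in its active period (June, called summer), which gave 12 libraries. The labels name no treatment, season was the factor compared, and each bear, named by its number 1305, 1316, 1317, 1509, 1511 or 1512, served as its own control.

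Depth ran from 16742406 to 32140160 reads per library, of which 10628 to 18765 fell on the 44 members. Levels are given as CPM, the reads of a gene relative to the TMM-scaled size of its library, and the fold change (FC) is winter over summer, with its log2 value and standard error (SE). A gene was called at an adjusted p below 0.05 in edgeR's quasi-likelihood test with the bear as a block, and "lower" and "higher" are used in this sense for genes. Muscle fibre markers summed to between 107417 and 182767 CPM in summer and between 111803 and 147717 CPM in winter. CPM does not account for transcript length, so levels are compared between seasons and not between genes.

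Wnt proteins are lipid-modified ligands that bind a frizzled receptor together with a single-pass partner. With LRP5 or LRP6 as partner, the signal passes through dishevelled, disables the complex of axin and APC, and lets β-catenin build up and act in the nucleus. ROR1, ROR2 and RYK are known mainly, though not only, for signals that do not use β-catenin. Secreted antagonists hold the ligands or the receptors, R-spondins keep receptors at the surface, and in skeletal muscle the pathway is known for its part in satellite cells, regeneration and fibrosis.

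Wnt genes were lower in the hibernating bear more often than they were higher. Of the 44 members, 14 (31.8%) were lower and 6 (13.6%) were higher in winter, and 24 were not called. Over all 17290 genes, 21.2% were lower and 19.6% higher. The median log2 FC of the members was −0.22, against −0.01 for all genes tested, and 27 members lay below 0 and 17 above. The lower genes were 3 ligands, the carrier WLS, 4 frizzled receptors, 3 single-pass receptors, 2 antagonists and β-catenin. The higher genes were 1 ligand, 1 R-spondin, 2 antagonists and the cytoplasmic proteins APC and DVL3. No receptor was higher in winter.

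The share of lower members stood above that of all genes only in part of the fits. Without the bear as a block, 7 members (15.9%) were lower and 4 higher, while 19.9% of all genes were lower and 19.6% higher, and the 9 members that lost their call are marked below. With a bear left out, the share of lower members was 16.7% against 18.0% of all genes without bear 1305, 14.0% against 18.7% without 1317, 21.4% against 21.9% without 1509 and 12.2% against 17.8% without 1512. It was 19.0% against 18.5% without bear 1316 and 26.8% against 19.3% without 1511. Scaling by library totals gave 15 lower members (34.1%, against 23.6% of all genes) and 3 higher members (6.82%, against 15.6%). Other fits with all bears and the block kept the share of lower members above that of all genes. It was 29.5% against 20.2% with DESeq2, 29.5% against 21.7% with limma voom and 29.5% against 20.8% with RLE normalization. With no filter it was 31.8% against 15.7%, and with filterByExpr 32.4% against 23.6%. At the stricter limit of an adjusted p below 0.01 with an FC above 1.3 or below 0.77, the lower members were FZD4, LRP6, ROR2 and SFRP2 and the higher members were APC and DVL3. That limit was met by 13.4% of all genes downward and by 12.2% upward.

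**Figure D1:**
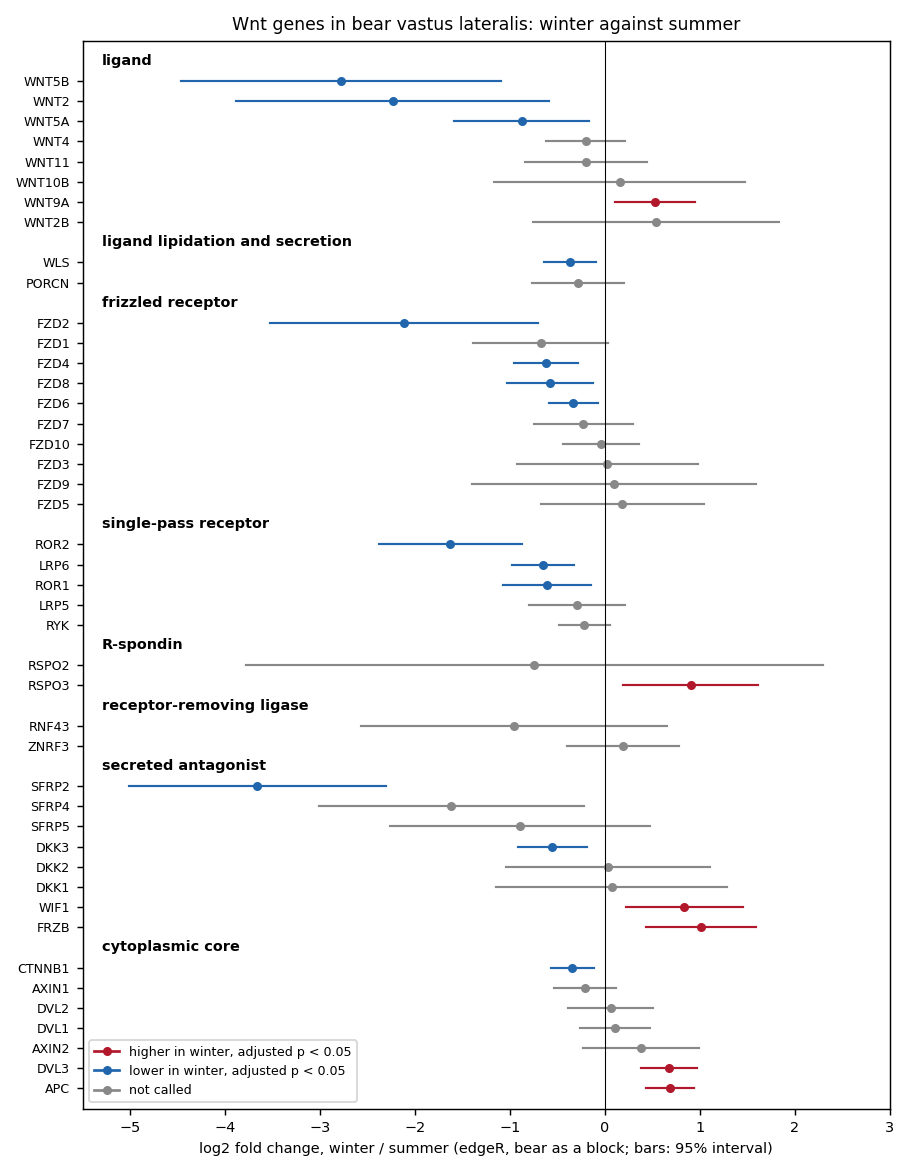
Log2 FC of the 44 members, winter over summer, grouped by role, with points for the edgeR estimate with the bear as a block and bars for its 95% interval (n = 6 bears). Blue marks the 14 members called lower and red the 6 called higher; the fall of SFRP2, at −3.66, lies farthest from 0 and the widest bar is that of RSPO2.

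**Figure D2:**
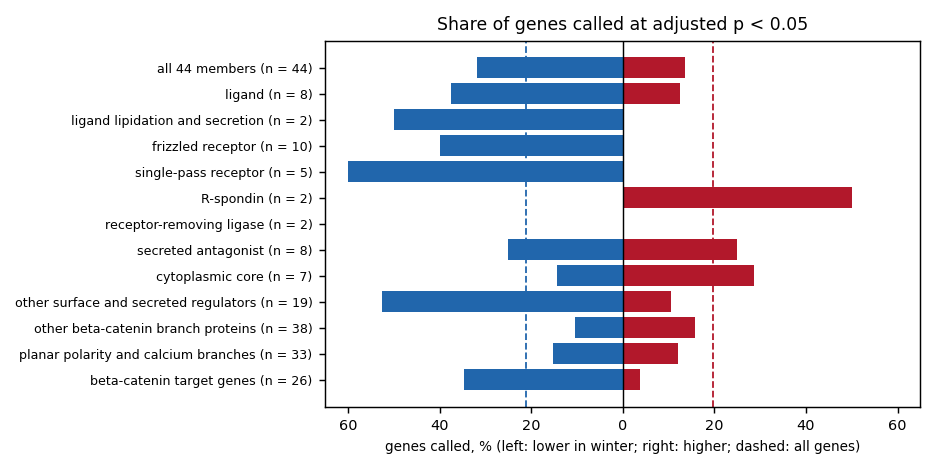
Share of the genes in each group, in percent, called lower in winter (to the left) or higher (to the right), with dashed lines at the shares over all genes tested. The bars of 2-gene groups rest on single genes; all 44 members reach 31.8% on the left and 13.6% on the right.

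Ligands were measured with few reads, at most 144 in any library. Of 8 ligands, WNT2, WNT5A and WNT5B were lower and WNT9A was higher in winter. WNT5A, the ligand best known for signals through ROR receptors, ranged from 0.615 to 1.56 CPM in summer (median 0.969) and from 0.326 to 1.08 in winter (median 0.466). It fell in 6 of 6 bears, and the seasons overlapped because the winter levels of bears 1511 and 1317 lay within the summer range. The difference (FC = 0.54, log2 FC −0.88 ± 0.32 SE, adjusted p = 0.0496) lay just inside the limit: adjusted p was 0.0818 without the block and ran from 0.0519, without bear 1317, to 0.144, without bear 1305, with the call lost whichever bear was left out. With all bears and the block it was also lost with DESeq2 (0.0959) and with RLE normalization (0.0513).

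WNT5B, a close relative of WNT5A, had 12 reads in the summer library of bear 1305, 3 or 4 reads in each other summer library, and 0 or 1 read in each winter library. The seasons did not overlap. Summed over bears this was 29 reads in summer and 3 in winter, a ratio of 8.78 after scaling to library size (exact 95% interval 2.72 to 45.0, counting error only), and the fit gave an adjusted p of 0.0141. Leaving out any bear took the gene below 30 reads, so no value without one can be given. The gene passed that limit mostly through its summer reads, the season in which it was high.

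WNT2, a ligand of the β-catenin branch, spanned 0.470 to 3.97 CPM in summer (median 0.863) and 0 to 1.02 CPM in winter (median 0.215). Winter libraries of bears 1316 and 1512 held no read, while bear 1511 rose from 15 to 17 reads and was the exception among 6 bears. WNT2 was lower in winter (FC = 0.21, log2 FC −2.24 ± 0.75 SE, adjusted p = 0.0340). The adjusted p was 0.0566 without the block, 0.119 without bear 1305, 0.0718 without 1316, 0.0903 without 1317 and 0.0743 without 1512, and the log2 FC was −3.07 without bear 1511.

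WNT9A went the other way, from 1.58 to 3.47 CPM in summer (median 2.84) to between 1.88 and 6.05 CPM in winter (median 4.61). It rose in 5 of 6 bears and moved from 2.62 to 2.53 CPM in bear 1305 (FC = 1.44, log2 FC 0.53 ± 0.19 SE, adjusted p = 0.0476). This call was lost without the block (adjusted p = 0.114), with DESeq2 (0.0559), with library totals (0.0802), with no filter (0.0606), and without bear 1316 (0.137), 1317 (0.133), 1511 (0.0838) or 1512 (0.0888). The other ligands, WNT4, WNT11, WNT10B and WNT2B, had log2 FCs of −0.20, −0.20, 0.15 and 0.53 and adjusted p from 0.419 to 0.859. WNT2B had no more than 6 reads and WNT10B no more than 15 in a library, which leaves their changes poorly determined.

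Most other ligands of the family were not measurable in this muscle. WNT1, WNT3, WNT3A, WNT6, WNT7A, WNT7B, WNT8A, WNT8B, WNT10A and WNT16 stayed under the limit of 30 reads, as did RSPO1, RSPO4, DKK4 and SFRP1. WNT1, WNT3A, WNT8A, WNT8B, WNT16 and RSPO4 had 0 reads over the 12 libraries, which allows up to 3. The most in this set were 23 reads for RSPO1 and 17 for WNT3.

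Of the proteins that make ligands ready, the carrier WLS was lower in winter and the lipid-adding enzyme PORCN was not called. WLS spanned 18.4 to 40.6 CPM in summer (median 27.3) and 13.7 to 32.2 CPM in winter (median 20.9). It fell in 5 bears and moved from 18.4 to 19.0 CPM in bear 1316, with wide overlap between the seasons (FC = 0.78, log2 FC −0.37 ± 0.12 SE, adjusted p = 0.0348). Without the block the adjusted p was 0.180, and it was 0.0670 without bear 1305, 0.0677 without 1317, 0.0587 without 1509, 0.0932 without 1511 and 0.0676 without 1512. PORCN had a log2 FC of −0.28 ± 0.22 SE (adjusted p = 0.331).

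Among the 10 frizzled receptors, FZD2, FZD4, FZD6 and FZD8 were lower and none was higher in winter. The other 6 were not called, and 3 of the 10 had a log2 FC above 0. Summed over all 10, levels fell from between 73.9 and 128 CPM in summer to between 65.4 and 72.6 CPM in winter, lower in 6 of 6 bears. FZD4, FZD6 and FZD7 made up most of this sum, so it says little about the others. FZD4, which also serves as receptor of Norrin in blood vessels, ran from 36.2 to 76.4 CPM in summer (median 46.7) and from 28.0 to 35.2 CPM in winter (median 32.2). Every winter library lay below every summer library, and the call (FC = 0.65, log2 FC −0.62 ± 0.15 SE, adjusted p = 0.00827) was made under all 15 alternatives run. FZD4 and WNT5B were the members whose winter levels lay wholly below summer and APC the one wholly above; among all genes these shares were 8.21% and 9.12%.

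Endothelial markers moved with FZD4. Of 8 such markers, 6 were lower and 1 higher in winter, and their sum dropped from between 638 and 966 CPM to between 428 and 496 CPM, also without overlap. VWF fell by 1.26, CDH5 by 1.01 and KDR by 0.98 on the log2 scale, while TEK had a log2 FC of −0.06 (adjusted p = 0.739). Their part in the FZD4 result was not tested. In a biopsy of whole muscle, fewer cells of a type and less RNA per cell cannot be told apart.

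FZD6, a receptor linked to planar polarity, held 17.7 to 29.0 CPM in summer (median 22.9) and 12.1 to 21.3 CPM in winter (median 20.1). It was lower in 6 of 6 bears, by very little in bear 1305 (20.3 to 20.2 CPM) and most in bear 1511 (FC = 0.79, log2 FC −0.33 ± 0.12 SE, adjusted p = 0.0404). The adjusted p was 0.115 without the block, 0.0516 with no filter, 0.0802 without bear 1317, 0.0645 without 1509, 0.109 without 1511 and 0.110 without 1512.

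FZD8 ranged from 1.98 to 4.23 CPM in summer (median 2.49) and from 1.01 to 4.03 CPM in winter (median 1.52). Bear 1511 had the highest level in each season, and all 6 bears fell (FC = 0.67, log2 FC −0.58 ± 0.21 SE, adjusted p = 0.0448). The call was lost without the block (0.233), with DESeq2 (0.0750), with limma voom (0.0514), and without bear 1305 (0.0846), 1316 (0.125), 1317 (0.116) or 1512 (0.0874).

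FZD2 was near the limit of detection, with 2 to 14 reads per summer library and 0 to 3 per winter library. The sums were 50 and 9 reads, a ratio of 5.05 after scaling (exact 95% interval 2.46 to 11.7, counting error only), and scaled levels fell in 6 of 6 bears (adjusted p = 0.0219). FZD2, too, passed the limit of 30 reads mostly through its summer libraries. Without bear 1305, 1316 or 1509 the adjusted p was 0.0519, 0.0545 and 0.0502.

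FZD1 was not called with all bears. In summer it spanned 0.984 to 2.27 CPM (median 1.69), and in winter 5 bears fell to between 0.588 and 1.01 CPM while bear 1511 rose to 4.03 CPM. The log2 FC was −0.68 ± 0.32 SE (adjusted p = 0.115) with all bears and −1.03 (adjusted p = 0.0173) without both libraries of bear 1511. The remaining receptors FZD3, FZD5, FZD7, FZD9 and FZD10 had log2 FCs between −0.23 (FZD7) and 0.18 (FZD5) and adjusted p from 0.466 to 0.966. FZD7, a receptor known from satellite cells, lay at 8.46 to 17.6 CPM in summer and 6.57 to 11.9 CPM in winter, with 4 bears up and 2 down. In FZD9 the bears went apart, from −2.77 in bear 1509 to 2.48 in bear 1511 on the log2 CPM scale.

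Single-pass receptors showed the highest share of lower genes for any role with more than 2 members, 3 of 5, against 21.2% of all genes. This rank rests on few genes, and the call of ROR1, 1 of the 3, was lost in most fits with a bear left out. The summed level of the 5 receptors fell from between 71.98 and 97.1 CPM to between 52.2 and 66.1 CPM, in 6 of 6 bears. LRP6, RYK and LRP5 made up most of this sum. LRP6, the co-receptor of the β-catenin branch, ran from 27.0 to 42.6 CPM in summer (median 36.7) and from 13.9 to 31.3 CPM in winter (median 23.8). The exception was bear 1509, which moved from 29.7 to 31.3 CPM, and the call (FC = 0.64, log2 FC −0.65 ± 0.15 SE, adjusted p = 0.00509) was made under all 15 alternatives. LRP5, its relative, had a log2 FC of −0.29 ± 0.23 SE (adjusted p = 0.327), with the winter library of bear 1509 at 5.85 CPM and the other winter libraries between 14.7 and 19.3 CPM. LRP5 went up in 3 bears and down in 3, its log2 FC was −0.015 without bear 1509, and whether it differed from LRP6 was not tested.

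ROR2, a tyrosine kinase-like receptor of WNT5A, went from between 0.659 and 1.44 CPM in summer (median 0.825) to between 0.130 and 0.842 CPM in winter (median 0.251). All 6 bears fell, and only bear 1511 kept a winter level within the summer range, since the next winter library stood at 0.286 CPM. The fall (FC = 0.32, log2 FC −1.63 ± 0.34 SE, adjusted p = 0.00351) was called under all 15 alternatives. It rested on few reads, 15 to 36 per summer library and 4 to 14 per winter library (winter median 5).

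ROR1 spanned 2.29 to 4.03 CPM in summer (median 3.47) and 1.40 to 3.02 CPM in winter (median 2.28). It fell in 5 bears and rose from 2.29 to 2.52 CPM in bear 1316 (FC = 0.65, log2 FC −0.61 ± 0.21 SE, adjusted p = 0.0391). The adjusted p was 0.0624 without bear 1305, 0.110 without 1317, 0.0636 without 1509, 0.0633 without 1511 and 0.122 without 1512. RYK, which binds Wnts through a WIF-like domain, was not called (log2 FC −0.22 ± 0.12 SE, adjusted p = 0.177) but passed without bear 1509 (log2 FC −0.31, adjusted p = 0.0343), whose summer library was the lowest of its season.

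**Figure D3:**
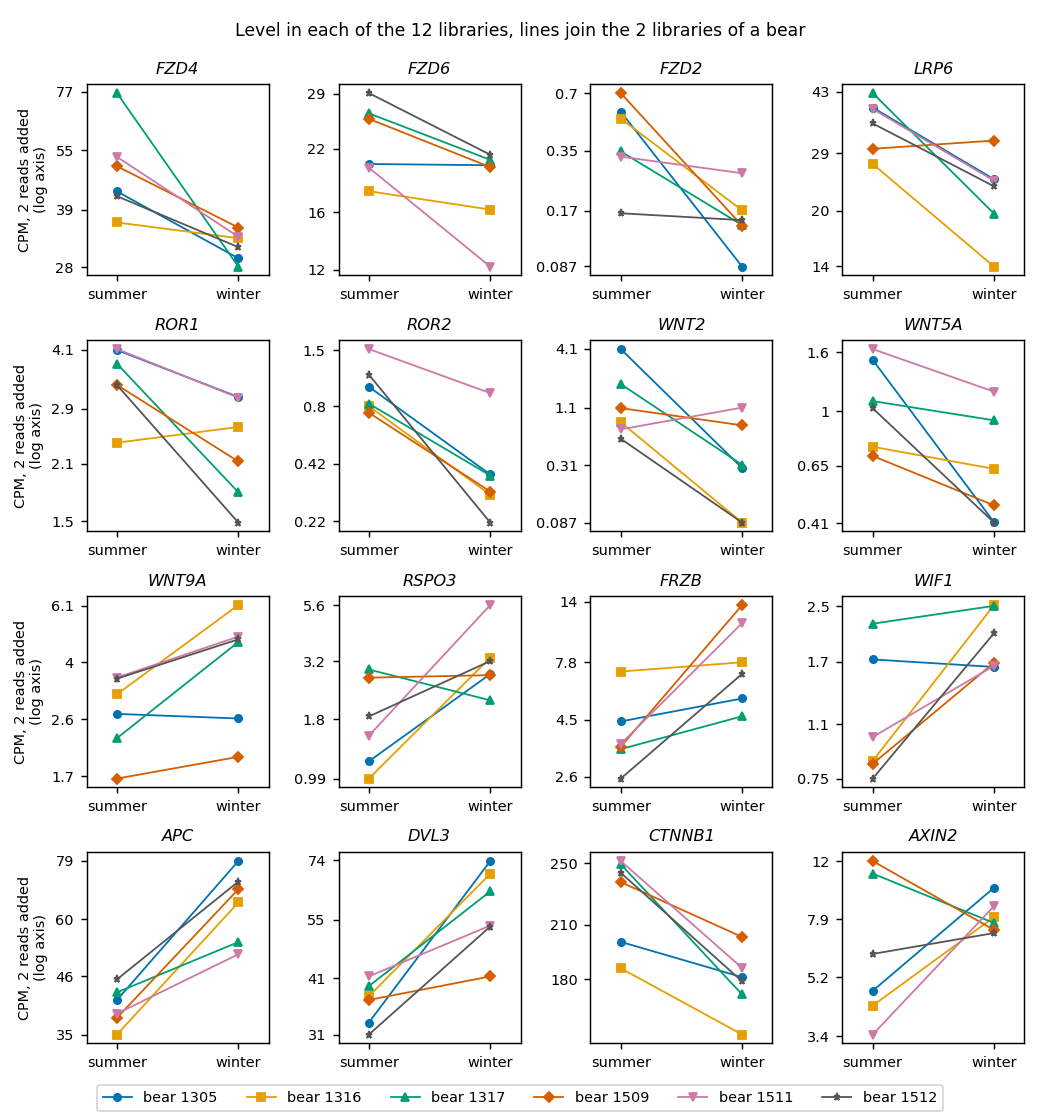
Level of 16 members in each of the 12 libraries, as CPM with 2 reads added on a log axis, with lines joining the summer and winter library of a bear. FZD4 and APC show no overlap between seasons, and AXIN2 shows 2 bears falling and 4 rising to a narrow range in winter.

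Of the genes that set how many receptors stay at the surface, RSPO3 was higher in winter and the receptor-removing ligases ZNRF3 and RNF43 were not called. RSPO3, a secreted enhancer of Wnt signals, ran from 0.906 to 2.87 CPM in summer (median 1.599) and from 2.08 to 5.54 CPM in winter (median 2.93). It rose in 5 bears and fell from 2.87 to 2.08 CPM in bear 1317 (FC = 1.87, log2 FC 0.90 ± 0.32 SE, adjusted p = 0.0444). The adjusted p was 0.0646 with library totals, 0.119 without bear 1305, 0.121 without 1316, 0.136 without 1511 and 0.0879 without 1512. RSPO2 was mostly undetected, with 15 of its reads in the summer library of bear 1512 and 11 in the winter library of bear 1509, and no other library above 2 (adjusted p = 0.693). ZNRF3 had a log2 FC of 0.19 ± 0.27 SE (adjusted p = 0.586) and RNF43, with at most 13 reads in a library, −0.96 ± 0.73 SE (adjusted p = 0.317). LGR4, an R-spondin receptor, which is no member, had a log2 FC of −0.35 ± 0.12 SE (adjusted p = 0.0386). This call was lost without bear 1305 (0.115), 1316 (0.0803), 1317 (0.0849), 1511 (0.0967) or 1512 (0.0697).

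The 8 members grouped by symbol as secreted antagonists split, with FRZB and WIF1 higher and SFRP2 and DKK3 lower in winter. FRZB, a decoy that carries a frizzled-like domain, ranged from 2.46 to 7.06 CPM in summer (median 3.43) and from 4.56 to 13.5 CPM in winter (median 7.32). It rose in 6 of 6 bears, least in bear 1316, which had the highest summer level, and the seasons overlapped (FC = 2.02, log2 FC 1.01 ± 0.26 SE, adjusted p = 0.0107). The call held without any single bear and was lost without bears 1509 and 1511 together (log2 FC 0.60, adjusted p = 0.0755).

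WIF1, which captures Wnt ligands, lay between 0.665 and 2.13 CPM in summer (median 0.841) and between 1.55 and 2.44 CPM in winter (median 1.79). It rose in 5 bears and moved from 1.64 to 1.55 CPM in bear 1305 (FC = 1.79, log2 FC 0.84 ± 0.28 SE, adjusted p = 0.0345). The adjusted p was 0.0645 without the block, 0.0592 with library totals, 0.101 without bear 1316, 0.0582 without 1509, 0.0643 without 1511 and 0.104 without 1512.

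SFRP2, a frizzled-related decoy of fibroblasts, spanned 0.219 to 13.5 CPM in summer (median 0.853) and 0 to 2.53 CPM in winter (median 0.0486). Bears 1511 and 1512 stood apart at 9.30 and 13.5 CPM in summer, while the other summer libraries reached at most 1.09 CPM, and in winter bear 1511 held 2.53 CPM against at most 0.260 CPM elsewhere. Each bear fell, so SFRP2 was lower in winter with the bear as a block (FC = 0.079, log2 FC −3.66 ± 0.61 SE, adjusted p = 0.00101) and not without it (adjusted p = 0.0537). The log2 FC was −5.13 without bear 1511 and −2.79 without bear 1512.

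SFRP4, a second frizzled-related decoy of connective tissue, was not called in the reported fit, and its call depended on bear 1511 and on the method. In summer it ran from 16.9 to 51.5 CPM (median 29.8), and in winter 5 bears fell to between 1.26 and 13.7 CPM while bear 1511 rose from 38.2 to 125 CPM. The log2 FC was −1.62 ± 0.63 SE (adjusted p = 0.0630) with all bears, −2.23 (adjusted p = 0.00479) without both libraries of bear 1511, and −0.27 (adjusted p = 0.817) with all bears and no block. DESeq2 with the block, library totals and no filter gave adjusted p of 0.0365, 0.0430 and 0.0263.

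DKK3 is a divergent Dickkopf protein, placed among the antagonists by its symbol only. It ranged from 6.81 to 20.5 CPM in summer (median 10.5) and from 4.58 to 16.7 CPM in winter (median 7.19). Bear 1511 was the highest in each season, and 5 bears fell while bear 1305 moved from 6.81 to 7.67 CPM (FC = 0.68, log2 FC −0.55 ± 0.17 SE, adjusted p = 0.0211). Adjusted p was 0.223 without the block, 0.0589 without bear 1316, 0.0578 without 1317 and 0.0750 without 1512. The LRP antagonists DKK1 and DKK2 and the decoy SFRP5 had log2 FCs of 0.07, 0.03 and −0.90 and adjusted p from 0.270 to 0.966. DKK2 stood at 15.6 CPM in the summer library of bear 1317 and at 1.86 CPM in its winter library, and it also fell in bear 1316 while the other 4 bears rose.

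Connective tissue markers were lower in winter, as were SFRP2, DKK3 and ROR2, and opposite to FRZB and WIF1. Of 10 fibroblast markers, 9 were lower in winter. Their sum went from between 3574 and 8559 CPM in summer to between 362 and 1826 CPM in winter, and without the collagens COL1A1 and COL3A1 from between 978 and 1904 CPM to between 317 and 1467 CPM. The winter library of bear 1511 was the one at 1467 CPM, and the next stood at 816 CPM. Of 4 tenocyte markers, 3 were lower with the block and 0 without it. Summed tenocyte markers were 485 CPM in bear 1511, 297 in 1512, 217 in 1317, 54.7 in 1316, 25.03 in 1305 and 14.1 in 1509 in summer, and 234 CPM in bear 1511 against at most 27.4 in the other winter libraries. In bear 1511 the fibroblast sum was 8559 CPM in summer and 1826 CPM in winter, and 1569 and 1467 CPM without the 2 collagens, while its SFRP4 and FZD1 rose. In summer the bears highest in SFRP2, 1511 and 1512, were also the highest in tenocyte markers, and the part of such tissue in the results was not tested.

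**Figure D4:**
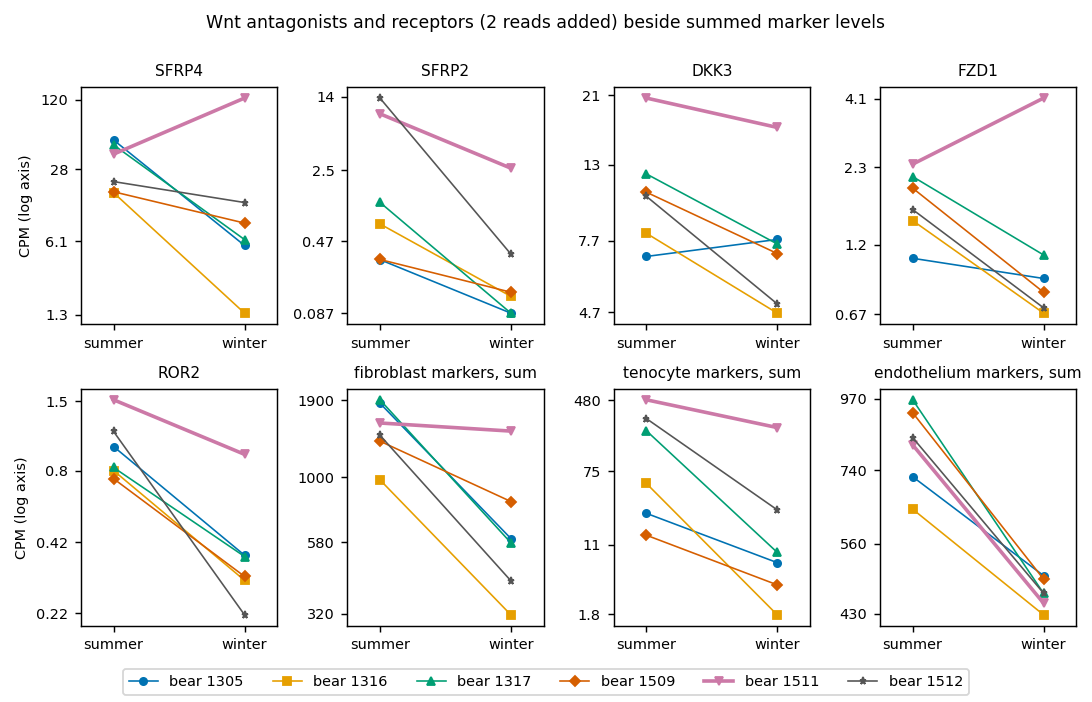
Levels of 5 members (CPM with 2 reads added) and of summed fibroblast (without COL1A1 and COL3A1), tenocyte and endothelium markers (CPM) in each library, on log axes, with bear 1511 as the thick line. Bear 1511 is the highest winter library for all 5 members shown and for the fibroblast and tenocyte sums, and not for the endothelium sum.

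Of the 7 cytoplasmic proteins, APC and DVL3 were higher and β-catenin (CTNNB1) was lower in winter. APC, the scaffold of the complex that destroys β-catenin, ran from 34.9 to 45.2 CPM in summer (median 39.8) and from 50.9 to 78.8 CPM in winter (median 67.0). Every winter library lay above every summer library (FC = 1.61, log2 FC 0.69 ± 0.11 SE, adjusted p = 0.000989).

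DVL3, a dishevelled protein that relays the receptor signal, ranged from 30.9 to 41.3 CPM in summer (median 37.1) and from 41.3 to 73.6 CPM in winter (median 58.3). It rose in 6 of 6 bears, and the seasons met at the summer library of bear 1511 and the winter library of bear 1509 (FC = 1.597, log2 FC 0.68 ± 0.13 SE, adjusted p = 0.00259). The calls of APC and DVL3 were made under all 15 alternatives.

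CTNNB1 lay between 186 and 252 CPM in summer (median 240) and between 154 and 203 CPM in winter (median 180). It fell in 6 of 6 bears with overlap between seasons, and bear 1316 was the lowest in each (FC = 0.79, log2 FC −0.34 ± 0.10 SE, adjusted p = 0.0203). The adjusted p was 0.0672 without bear 1512.

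DVL1, DVL2, AXIN1 and AXIN2 were not called. DVL1 had a log2 FC of 0.10 ± 0.17 SE (adjusted p = 0.643), with the winter library of bear 1509 at 50.2 CPM and the other winter libraries at 85.6 to 129 CPM, and it passed without that bear (log2 FC 0.31, adjusted p = 0.0267). DVL2 had a log2 FC of 0.06 and AXIN1 of −0.21, with adjusted p of 0.836 and 0.288. AXIN2, a scaffold that is itself a widely used readout of β-catenin activity, ran from 3.35 to 11.9 CPM in summer (median 5.35) and from 7.07 to 9.84 CPM in winter (median 7.77). Bears 1317 and 1509, the highest in summer, fell and the other 4 rose. Its log2 FC was 0.38, with a 95% interval from −0.23 to 0.99 (adjusted p = 0.291), and the bears differed more in summer (SD 0.75 on the log2 CPM scale) than in winter (SD 0.18).

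Bear by bear, 3 members were higher in all 6 animals (APC, DVL3 and FRZB) and 9 were lower (WNT5A, WNT5B, FZD2, FZD4, FZD6, FZD8, ROR2, SFRP2 and CTNNB1). Among all genes, 18.4% were higher and 19.0% lower in 6 of 6 bears. In several members 1 bear went against the other 5. Bear 1511 rose in SFRP4, FZD1 and WNT2, bear 1509 rose in LRP6, RYK and WNT4 and fell in DVL1 and ZNRF3, bear 1305 rose in DKK3 and fell in WIF1 and WNT9A, bear 1316 rose in ROR1 and WLS, and bear 1317 fell in RSPO3.

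**Figure D5:**
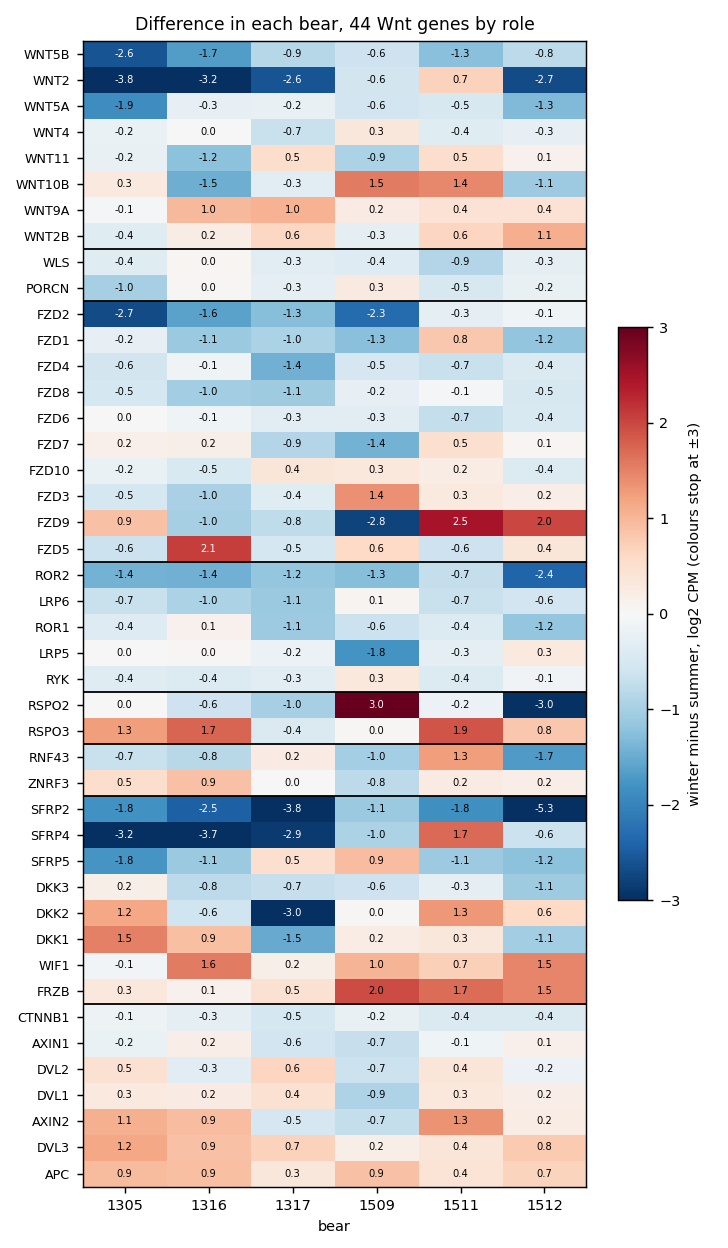
Winter minus summer level of each member in each bear, in log2 CPM with a prior count of 2, with members in rows by role and bears in columns. Rows of 1 colour are the members that moved one way in all 6 bears, such as FZD4, ROR2 and APC; colours stop at 3 log2 units in either direction.

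Beyond the members, 90 other genes of the pathway were tested, of which 12 (13.3%) were higher and 19 (21.1%) lower in winter, against 19.6% and 21.2% of all genes. The falls were most frequent among the 19 other surface and secreted regulators, of which 10 were lower and 2 higher. SERPINF1, a secreted protein that binds LRP6, fell by 3.09 on the log2 scale (adjusted p = 1.6e-05). The heparan sulfate proteoglycans SDC1 and GPC6, which hold ligands at the surface, fell by 2.59 and 1.41, the secreted CTHRC1, linked to the polarity branch, by 2.12, and IGFBP4, which binds LRP6 and frizzled proteins, by 1.93. TSPAN12, a partner of FZD4 in Norrin signaling, was higher (log2 FC 0.53 ± 0.15 SE, adjusted p = 0.0140), opposite in sign to FZD4. The calls of these 6 genes were made without any single bear too.

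Of 38 other proteins of the β-catenin branch, 6 were higher and 4 lower. The corepressor TLE1 rose by 1.27 ± 0.16 SE on the log2 scale (adjusted p = 0.000173), the tankyrase TNKS, which marks axin for removal, by 0.78, and the β-catenin partner PYGO1 by 0.58. DACT1, which binds dishevelled, fell by 1.26, and CTNNBIP1, which keeps β-catenin from TCF factors, fell by 0.60. Of 33 genes of the polarity and calcium branches, 4 were higher and 5 lower. CELSR3, a polarity cadherin with 80 reads in all, rose by 1.58 and the calcium-regulated factor NFATC3 by 0.91, while DAAM2, a formin that binds dishevelled, fell by 1.10, NFATC4 by 0.84 and the phospholipase PLCB2 by 1.17. These 2 lists lay below the shares of all genes in both directions.

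Of 33 listed β-catenin target genes, 26 were tested, and 16 of these were not called. The members AXIN2, RNF43, ZNRF3 and DKK1 are also known targets and were left out of this list. None of them was called, with log2 FCs of 0.38, −0.96, 0.19 and 0.07. Lower in winter were 9 (34.6%) and higher 1 (3.85%), against 21.2% and 19.6% of all genes. The cyclin CCND1 had a log2 FC of −2.15 ± 0.21 SE (adjusted p = 4.83e-05) and its relative CCND2 of −2.06 ± 0.15 SE (adjusted p = 1.22e-05), and the Eph receptor EPHB2 fell by 2.96 (adjusted p = 0.000215). WISP1, a matricellular protein, had a log2 FC of −3.39 (adjusted p = 0.00112), of −4.003 without bear 1511, and was not called without the block (adjusted p = 0.0597). DACT1, also in the list of pathway proteins above, fell as given there. Without the block 8 target genes were lower and 0 higher. MYC had a log2 FC of 0.10 and the stem cell receptor LGR5 of −0.66, neither called.

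Other cell type markers moved with season as well. Lower in winter were 5 of 8 smooth muscle and pericyte markers, 4 of 6 leukocyte markers, 4 of 4 satellite cell markers, 2 of 6 Schwann cell markers, 1 of 6 adipocyte markers and 3 of 8 muscle fibre markers, and 1 muscle fibre marker, TTN, was higher. Among all genes, 21.2% were lower. Without the block, 3 smooth muscle and pericyte, 3 leukocyte, 3 satellite cell and 1 Schwann cell markers were lower. PAX7 and CALCR of the satellite cell list were not called with DESeq2 and the block (adjusted p = 0.0883 and 0.0763). VCAM1 of that list was not called without the block (0.0627). The call of PAX7 was also lost without bear 1305, 1317, 1509, 1511 or 1512. The markers of satellite cells, the stem cells of muscle, summed to between 9.88 and 16.5 CPM in summer and between 3.95 and 8.22 CPM in winter, without overlap. Smooth muscle and pericyte markers summed to between 522 and 661 CPM in summer and between 291 and 371 CPM in winter, also without overlap. Leukocyte markers summed to between 53.5 and 104 CPM in summer and 39.9 and 68.8 CPM in winter, adipocyte markers to 480 to 1583 and 315 to 776 CPM, and Schwann cell markers to 46.8 to 102 and 42.7 to 156 CPM. Among the defining markers, SOX10 (Schwann cell), CALCR (satellite cell), LEP (adipocyte), SCX and MKX (tenocyte) had no read in at least 1 library. The part of these cells in the members' differences was not tested.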

How the data were processed

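Muscle RNA of 6 bears in each of 2 seasons was sequenced by the authors from stranded poly(A) libraries as single reads, aligned to the brown bear assembly ASM358476v1 with TopHat2 2.1.1 and counted per gene and strand with featureCounts 1.6.2, per the study's methods and the submitters' processing notes. The deposited values are these raw counts, neither normalized nor filtered. All 12 columns of counts matched a sample title, and 0 columns were left without a sample.

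Genes with at least 30 reads over the 12 libraries were kept. Counts were scaled by TMM in edgeR 4.0.16 (R 4.3.3), and winter was compared with summer by glmQLFit and glmQLFTest with bear and season as terms, with Benjamini-Hochberg adjustment over all 17290 genes. The study names DESeq2 and the same animals in both seasons, with no design formula in the sources used here. The pairing comes from the animal: after subtraction of each season's mean, summer and winter libraries of 1 bear correlated with r between 0.0903 and 0.344, and over 30 pairs of different bears the median r was −0.0634 and the highest 0.142. Libraries of a season are from different animals. With the bear as a term, the test set the mean change from summer to winter against the variation left after bear and season. Log2 CPM used a prior count of 2. Intervals on reads are exact 95% intervals and cover counting error only.

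Alternatives were the fit without the block, DESeq2 1.42.0 with and without it, limma 3.58.1 voom, RLE normalization, library totals, no filter, filterByExpr, each bear left out, a stricter threshold and, chosen after seeing the data, bears 1509 and 1511 left out together. Fits were tested on simulated data. The changes set there were in genes with more reads than FZD2, WNT5B, ROR2, WNT5A and WNT2. They were also larger than the changes of most called members, among them APC, DVL3, FZD4, LRP6, FZD6, WLS and CTNNB1. The simulation therefore did not cover most of the called members. The members and all lists of other pathway genes, targets and markers were chosen with earlier results of these data known. Every member is named. Those called, or called differently without the block, are given with their values, and up to 5 called genes with the largest log2 FC are named per list. SFRP4, FZD1, RYK, DVL1, AXIN2, DKK2, FZD7, TSPAN12, LGR4, MYC and LGR5, and single marker genes, were given values outside this rule, after these had been seen. The gene behind 1 call among the target genes is not reported here. WISP1 is the file's older symbol of CCN4. MYH2 and MYH7 of the muscle fibre list had no row of that symbol, so 8 of its genes were used. The libraries were sequenced in lanes that the labels do not assign, and a lane effect was not tested.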

Additional observations from a re-analysis of the deposited data

Results flagged for a closer look

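A level in log2 CPM was singled out by Dixon's test at 95%, which sets the distance from an extreme library to its neighbour against the range over all 6 libraries of that season. This happened in 9 of 88 groups of a member and a season, where chance gives about 1 in 20 for normally distributed levels. Low counts depart from that, and the groups share libraries and are not independent.

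The winter library of bear 1511 was high in FZD1 (2.04 log2 CPM, the others between −0.57 and 0.14). It was also high in ROR2 (−0.11, on 14 reads, the others between −2.20 and −1.42) and in WNT2B (−1.16, on 6 reads). The winter library of bear 1509 was low in AXIN1 (2.73, the others between 3.28 and 3.56) and in LRP5 (2.57, the others between 3.88 and 4.27). The summer library of bear 1509 was low in RYK (4.42, the others between 4.71 and 4.83). The remaining values also rested on few reads. WNT5B was high in the summer library of bear 1305 (−0.93, on 12 reads). RSPO2 was high in the summer library of bear 1512 (−0.57, on 15 reads) and in the winter library of bear 1509 (−0.53, on 11 reads).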

How the results depend on the processing

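Of the 20 called members, 6 (APC, DVL3, FZD4, LRP6, ROR2 and WNT5B) were called in every alternative that held them, and 0 changed sign in any of the up to 15 alternatives. WNT5B had a value in 7 alternatives, none of which left out a bear, so its call could not be checked in that way. All 7 used the same few reads, most of them from summer. Of the 24 uncalled members, 4 were called in some alternative and 11 changed sign in some. With the replicate block left out 9 members lost their call and 0 gained one. The count of higher members, 6 in the reported fit, was 3 with library totals, 3 to 6 with a bear left out, 2 without bears 1509 and 1511, and 2 at the stricter limit. The share of lower members was under that of all genes without the block and without bear 1305, 1317, 1509 or 1512. The count of lower members, 14, was 7 with no replicate block, 8 with DESeq2 and no block, 5 (without bear 1512) to 11 (without bear 1511) with a bear left out, 9 without bears 1509 and 1511, and 4 at the stricter limit, which called 4440 of all genes in place of 7055. Called target genes higher in winter, 1, were 0 without the block by edgeR or DESeq2 and 2 with DESeq2 and the block. Library totals moved the median log2 FC of all genes to −0.08. The cause of these changes was not tested.

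The log2 FCs that changed sign belonged to uncalled members. With no replicate block they were −0.028 (DKK1), −0.24 (DKK2) and −0.38 (FZD9), with DESeq2 and no block −0.022, −0.23 and −0.38, with DESeq2 and the block −0.00054 (FZD3), and with voom −0.064 (DKK2) and −0.12 (FZD9). Library totals gave −0.0076 (DKK1), −0.028 (DKK2), −0.019 (DVL2) and −0.055 (FZD3). Without bears 1509 and 1511 they were −0.11 (DKK1), −0.35 (DKK2), −0.48 (FZD3), 0.041 (LRP5) and −0.85 (WNT10B). With 1 bear left out, DKK1 ran from −0.32 to 0.46, DKK2 from −0.26 to 0.55, DVL2 from −0.056 to 0.20, FZD10 from −0.12 to 0.055, FZD3 from −0.32 to 0.23, FZD5 from −0.18 to 0.37, FZD7 from −0.37 to 0.013, FZD9 from −0.36 to 0.71, WNT10B from −0.25 to 0.54 and WNT11 from −0.36 to 0.027. In 10 members with few reads at least 1 alternative gave no value, because the gene fell under its filter, as WNT5B did without any bear.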

Other observations

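The winter library of bear 1509 held the lowest level of all 12 libraries for DVL1 (50.2 CPM), DVL2 (2.26 CPM), AXIN1 (6.57 CPM), LRP5 (5.85 CPM), FZD7 (6.57 CPM) and WNT11 (0.828 CPM), had no read of RNF43, and held the highest level for FRZB (13.5 CPM), PORCN (2.81 CPM), FZD3 (1.16 CPM) and RSPO2 (0.607 CPM). The winter library of bear 1511 held the highest level of all 12 for SFRP4 (125 CPM), FZD1 (4.03 CPM), RSPO3 (5.54 CPM), WNT11 (3.13 CPM), WNT10B (0.903 CPM), WNT2B (0.361 CPM), DKK1 (0.481 CPM) and DVL2 (5.90 CPM), and the lowest for FZD6 (12.1 CPM), WLS (13.7 CPM) and WNT4 (1.81 CPM). These libraries and genes were chosen after their values were seen.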
